A study of Mus musculus with 8 samples.

Results

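Calcium channels, sodium channels and cyclic-nucleotide-gated channels are cation channels of the cell membrane, and the 36 mouse genes described here encode pore-forming and auxiliary subunits of them. The members were a list of gene symbols, matched to the symbols of the authors' deposited table and through them to the count files, and all 36 were found among 49584 features. They comprise 6 high-voltage-activated calcium channel pores, 3 T-type calcium channel pores, 4 alpha2delta subunits, 4 calcium channel beta subunits, 5 gamma subunits, 7 sodium channel pores, 3 sodium channel beta subunits, 2 HCN pacemaker channels and 2 cyclic-nucleotide-gated channel subunits. The series asked how loss of TEFM, the elongation factor of the mitochondrial RNA polymerase, alters gene expression in mouse heart. RNA of crude heart mitochondria was sequenced from 4 Tefm knockout mice and 4 control mice. Knockout mice carried a loxP-flanked exon of Tefm on both alleles together with cre driven by the muscle creatine kinase promoter (L/L, cre; Tefm -/-), which drives expression in striated muscle, heart included, and other cell types of the heart are not its target. Control mice were L/L without cre in the sample names and Tefm +/+ in the genotype label. The sources used here do not state age, sex or strain.

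Voltage-gated calcium and sodium channels open when the membrane depolarizes. In heart muscle the sodium current gives the upstroke of the action potential, and calcium entering through L-type channels then triggers calcium release from the sarcoplasmic reticulum and contraction. Each high-voltage-activated calcium channel pore is joined by a cytoplasmic beta subunit and an extracellular alpha2delta subunit, which set how many channels reach the membrane and how they gate, and sodium channel pores are joined by single-span beta subunits. HCN channels open on hyperpolarization, are favoured by cyclic AMP and carry the pacemaker current, whereas cyclic-nucleotide-gated channels are opened by cyclic nucleotides directly and are best known from photoreceptors and olfactory neurons.

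Libraries held 21108165 to 25393933 counts in knockouts and 26268804 to 27403415 counts in controls. Transcripts of mitochondrial DNA took 38.7% to 59.3% of the counts in knockouts and 72.3% to 74.0% in controls, and the nuclear transcripts, among them those of all channel genes, are the RNA that came down with the crude mitochondria. Knockout replicate 1 stood apart from the other knockouts, with the highest of these knockout shares. It lay nearest to the control mean of the 4 knockouts in 6 of the members that passed the test and farthest from it in 6, and values that rest on it are given with and without it. Tefm itself had 6.86 ± 0.596 CPM (counts over the TMM-scaled library size) in knockouts and 6.24 ± 0.639 CPM in controls (SD, n = 4 each) and did not pass the test (log2 fold change 0.14, SE 0.11, adjusted p = 0.324 in edgeR's quasi-likelihood test). The sources used here do not say which exon was removed, so counts over the whole gene do not check the deletion. Heart muscle markers were abundant in every library. Of 10 such markers 2 rose and 7 fell in knockouts, and their summed level was 9970 to 15270 CPM in knockouts and 20540 to 21300 CPM in controls. Among markers of other cells of the heart wall, 1 endothelial marker of 8 rose and 3 fell. None of 8 smooth muscle and pericyte markers rose and 3 fell, and of 6 leukocyte markers tested none rose and 2 fell. Of 8 fibroblast markers 4 rose and none fell. Over all genes tested 26.1% were higher and 23.9% lower. In a bulk preparation of crude mitochondria, fewer cells of a type, less RNA per cell and less carry-over of RNA cannot be told apart.

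The channel genes changed in both directions, and with TMM scaling more members were lower than higher in knockouts. Of the 36 members 23 had enough counts to be tested, and 14 of these (60.9%) passed the test, where 50.0% of all 17891 genes tested did (edgeR's quasi-likelihood test, Benjamini-Hochberg adjusted p under 0.05). With scaling by library totals the balance turned, to 12 of the 23 members higher and 6 lower. Under that scaling 14066 of all 17891 genes were higher and 480 lower. With TMM scaling, but without knockout replicate 3 or control replicate 3, the members called higher were 2 in place of 4. The beta subunit gene Cacnb1, the sodium channel relative Scn7a, the sodium channel beta subunit gene Scn3b and the cyclic-nucleotide-gated subunit gene Cngb1 rose, which is 17.4% of tested members against 26.1% of all genes. The 10 that fell, 43.5% against 23.9% of all genes, were Cacna1c, Cacna1g, Cacna1h, Cacna2d1, Cacnb2, Cacng6, Scn4a, Scn4b, Hcn4 and Cngb3, although with scaling by library totals Cacna1c and Cacna1h stood above 0 and Cacna1g and Cacna2d1 no longer passed. The 4 knockout libraries did not overlap the 4 control libraries in 13 of the tested members (56.5%), against 45.4% of all genes. A change of at least 2-fold that also passed the test was seen in 9 members (39.1%), against 14.0% of all genes. The median log2 fold change was -0.60 over the tested members and -0.01 over all genes. Cacng6 and Cngb3 reached the minimum count of the test through their control libraries alone and Cngb1 through its knockout libraries alone, so the counts and median over the tested members are a description of those that passed this filter and not of all members.

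**Figure D1:**
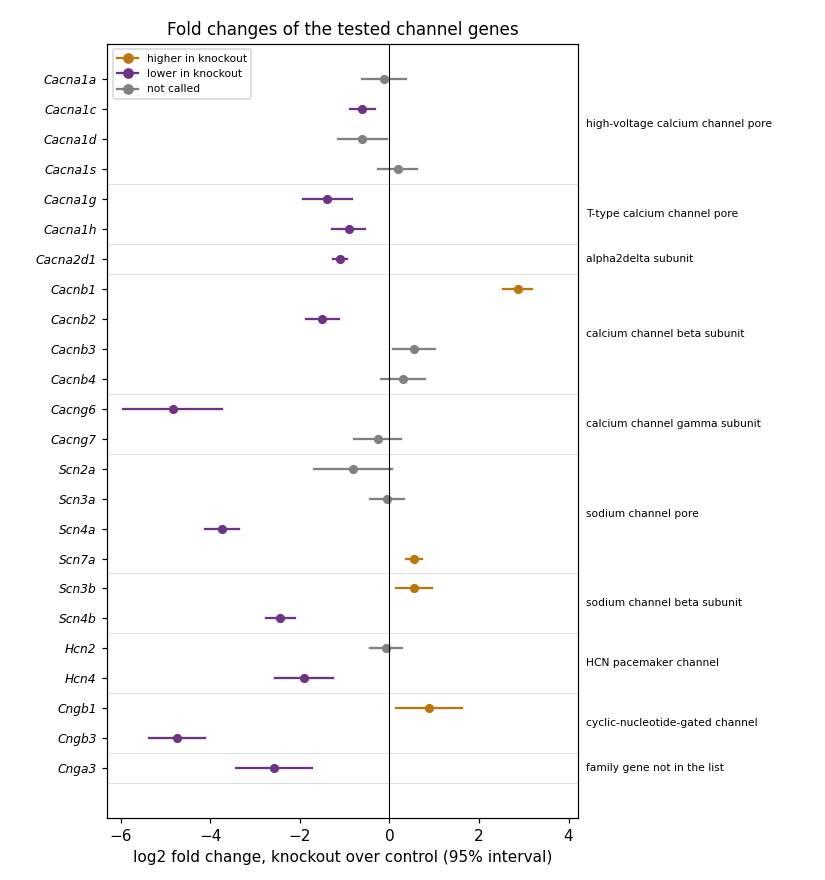
Log2 fold change of each tested channel gene, knockout over control, with its 95% interval (edgeR, 4 libraries a group), grouped by the role of the protein. Cacnb1 stands highest at 2.87, and Cacng6, Cngb3 and Scn4a lie lowest, between -4.84 and -3.74.

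The scaling between libraries bears on every direction given here, because the share of mitochondrial transcripts differed between the groups. TMM scaling places the median of all genes near 0. When counts were divided by library totals alone, that median moved up by 0.99 on the log2 scale and lay at 0.97. Members moved up by about the same amount, so a change of scaling leaves their place against the median nearly fixed. With library totals 16 of the 23 tested members lay below that median, which is no separate support for a fall. Changes of channel genes are therefore relative to the bulk of nuclear transcripts.

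**Figure D2:**
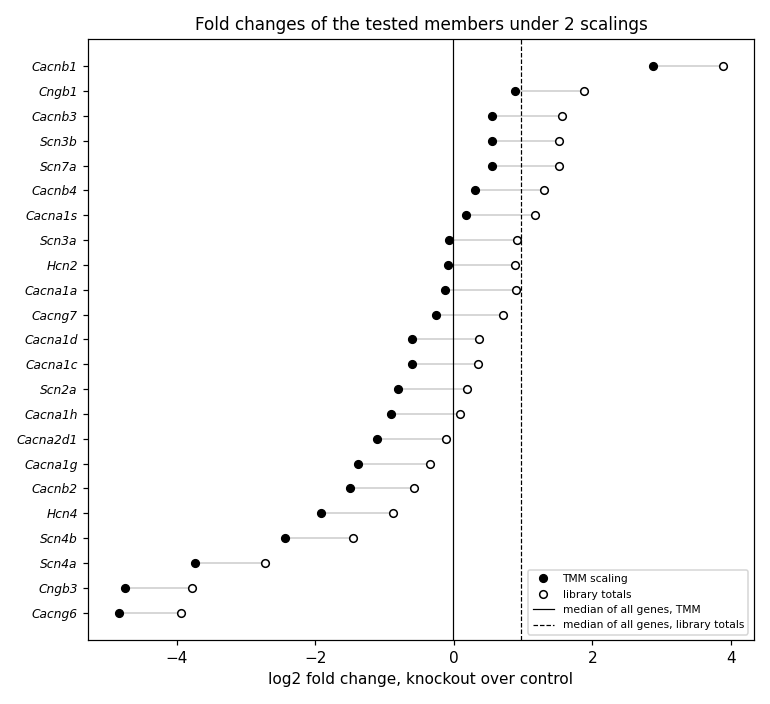
Log2 fold change of each of the 23 tested members, knockout over control, with TMM scaling (filled) and with library totals (open), and the median of all genes under each scaling as a line. Every member moves right by about the same amount, which takes Cacna1c and Cacna1h, and the uncalled Cacna1a, Cacna1d, Cacng7, Scn2a, Scn3a and Hcn2, across 0 and leaves Cacnb1 highest and Cacng6 lowest.

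The pore of the L-type channel of heart muscle was less abundant in knockouts. Cacna1c (ENSMUSG00000051331.14, chromosome 6, 118587240 to 119196418, minus strand, GRCm38) encodes this pore and was the member with the highest level per exon length in both groups. It had 186, 128, 130.2 and 115 CPM in knockouts 1 to 4, against 228, 224, 212 and 187 CPM in controls 1 to 4. Knockout replicate 1 came just below the lowest control, and the groups did not overlap. The log2 fold change was -0.61 (SE 0.13, adjusted p = 0.00137 in edgeR's quasi-likelihood test) with TMM scaling, and 0.35 with library totals, where the gene passed as higher (adjusted p = 0.0221). Without knockout replicate 1 it was -0.78.

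Other high-voltage-activated pores did not pass the test. Cacna1d, the L-type pore known from atrial and pacemaker cells, had 0.630 to 1.42 CPM in knockouts and 1.25 to 1.99 CPM in controls, with overlapping groups (log2 fold change -0.60, 95% interval -1.15 to -0.05, adjusted p = 0.0657 in edgeR's quasi-likelihood test). It stood at 0.36 with library totals, and without knockout replicate 1 it passed as lower at -0.77 (adjusted p = 0.0176). Cacna1s, the skeletal muscle L-type pore, gave a log2 fold change of 0.18 (95% interval -0.25 to 0.62) and passed as higher with library totals (1.17), and Cacna1a, the P/Q-type pore of nerve terminals, gave -0.12 (95% interval -0.61 to 0.37). The ratio of Cacna1d to Cacna1c within a library, which does not depend on scaling, was -7.08 ± 0.281 in knockouts and -7.08 ± 0.267 in controls on the log2 scale (SD, n = 4 each). The difference of -0.01 was far within the spread of the libraries (exact permutation p = 0.971). Cacna1b and Cacna1e, the N-type and R-type pores of neurons, held 18 and 37 counts over all 8 libraries and were not tested.

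Both tested T-type pores, which open at more negative voltages and are known from pacemaker cells and fetal heart muscle, fell in knockouts. Cacna1g (ENSMUSG00000020866.17, chromosome 11, 94408391 to 94474198, minus strand) had 1.49, 4.49, 3.95 and 6.24 CPM in knockouts 1 to 4, against 9.80, 10.7, 11.5 and 10.8 CPM in controls 1 to 4. All knockouts lay below all controls, with knockout replicate 1 far below the other knockouts. Its log2 fold change was -1.38 (SE 0.26, adjusted p = 0.000502 in edgeR's quasi-likelihood test) with TMM scaling, and -0.34 with library totals, where it did not pass (adjusted p = 0.258). Without knockout replicate 1 it was -1.14, so the fall did not rest on that library.

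Cacna1h (ENSMUSG00000024112.16, chromosome 17, 25374285 to 25433783, minus strand) had 2.07, 2.58, 2.63 and 2.43 CPM in knockouts 1 to 4, against 5.27, 5.66, 3.38 and 3.94 CPM in controls 1 to 4. Knockout libraries were alike and lay below a spread of controls. The log2 fold change was -0.91 (SE 0.17, adjusted p = 0.000603 in edgeR's quasi-likelihood test) with TMM scaling and 0.10 with library totals. The log2 ratio of Cacna1h to Cacna1g was -0.57 ± 0.762 in knockouts and -1.25 ± 0.424 in controls (SD, n = 4 each), a difference of 0.68 with overlapping groups that did not pass an exact permutation test (p = 0.143, 0.214 after adjustment over 6 such ratios). Cacna1i, the third T-type pore, held 9 counts in all and was not tested.

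**Figure D3:**
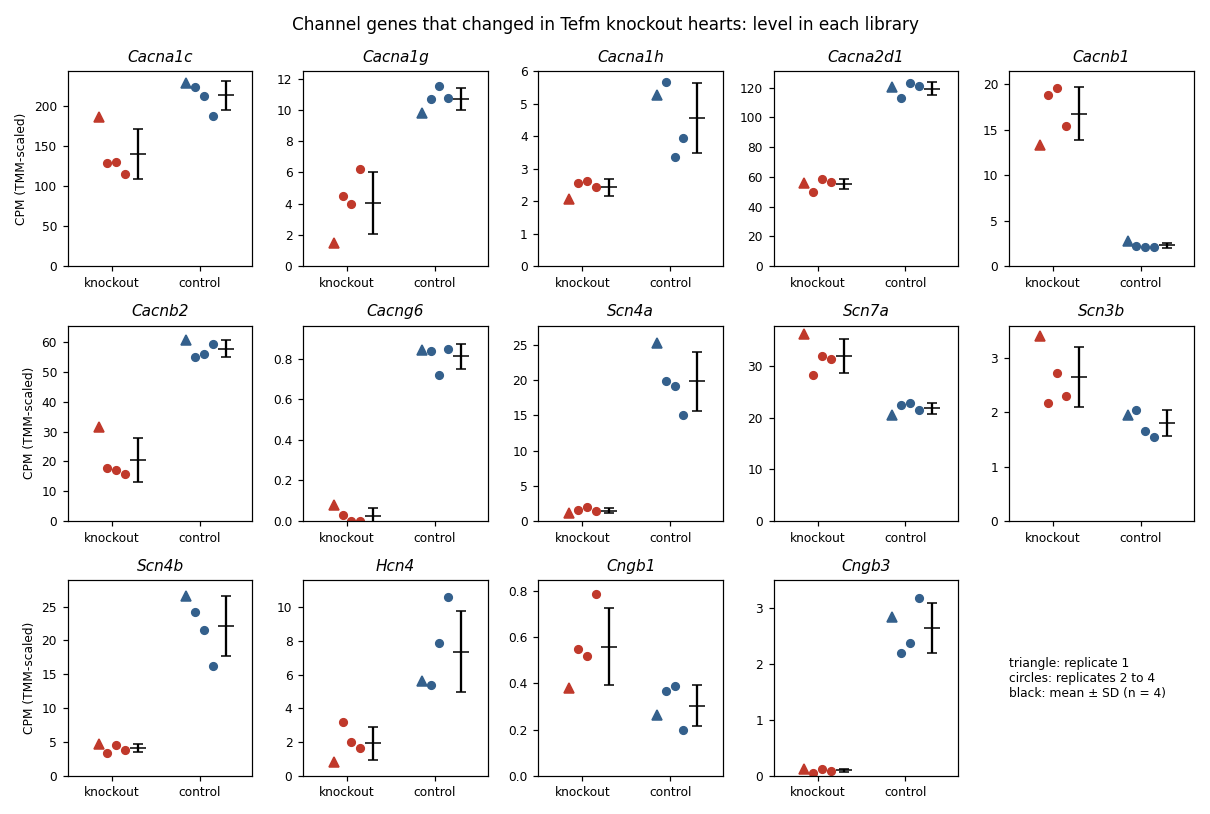
Level of the 14 channel genes that passed the test in each library, in CPM after TMM scaling on a linear axis from 0, knockouts in red and controls in blue, with replicate 1 as a triangle and the mean ± SD (n = 4) in black. The groups are apart in every panel except that of Cngb1, where the lowest knockout, 0.382 CPM, lies just below the highest control, 0.387 CPM.

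The alpha2delta subunit that the heart uses most fell by about the same amount in every knockout. Cacna2d1 (ENSMUSG00000040118.15, chromosome 5, 15934691 to 16374511, plus strand), whose product carries the pore to the membrane and binds gabapentin, had 56.1, 50.1, 58.3 and 56.4 CPM in knockouts 1 to 4, against 120.3, 113, 123 and 121 CPM in controls 1 to 4. Both groups were tight and far apart, and the log2 fold change was -1.11 (SE 0.07, adjusted p = 2.81e-08 in edgeR's quasi-likelihood test) with TMM scaling, and -0.12 with library totals, where it did not pass (adjusted p = 0.479). Per exon length it made up 98.7% ± 0.491 of the alpha2delta total in knockouts and 98.5% ± 0.194 in controls (SD, n = 4 each). Cacna2d2, Cacna2d3 and Cacna2d4 held 57, 65 and 35 counts over all libraries and were below the minimum of the test. The log2 ratio of Cacna2d2 to Cacna2d1 was -8.41 ± 0.768 in knockouts and -7.96 ± 0.650 in controls (SD, n = 4 each), a difference of -0.45 with overlapping groups (exact permutation p = 0.4, 0.48 after adjustment over 6 such ratios).

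Among the calcium channel beta subunits, 1 gene rose and 1 fell, and per exon length their order was turned round. Cacnb1 encodes the beta subunit of the skeletal muscle channel and Cacnb2 the beta subunit that predominates in heart muscle, where it brings the L-type pore to the membrane and mediates its block by RGK proteins. Cacnb1 (ENSMUSG00000020882.17, chromosome 11, 98001508 to 98023034, minus strand) rose 7.31-fold and Cacnb2 (ENSMUSG00000057914.15, chromosome 2, 14603088 to 14987908, plus strand) fell 2.83-fold. RefSeq lists 2 start sites for each gene in the table used here, and the 300 bases around each start (250 before and 50 after it, GRCm38.p6) are shown because this pair carries the opposite changes. CpG dinucleotides are in capitals, each window is read on the strand of its gene, and the first of each pair is rich in CpG, with 34 in Cacnb1 and 35 in Cacnb2, while the second holds 3 in Cacnb1 and 4 in Cacnb2.
Cacnb1 start with many CpG, chr11:98022578-98022877, minus strand: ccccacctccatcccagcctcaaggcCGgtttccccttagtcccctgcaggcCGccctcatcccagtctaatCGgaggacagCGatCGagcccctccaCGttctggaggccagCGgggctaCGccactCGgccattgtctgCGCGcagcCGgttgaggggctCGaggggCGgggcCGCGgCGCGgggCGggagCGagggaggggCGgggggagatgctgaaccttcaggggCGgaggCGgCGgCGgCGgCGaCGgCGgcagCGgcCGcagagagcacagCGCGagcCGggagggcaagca
Cacnb1 start with few CpG, chr11:98018323-98018622, minus strand: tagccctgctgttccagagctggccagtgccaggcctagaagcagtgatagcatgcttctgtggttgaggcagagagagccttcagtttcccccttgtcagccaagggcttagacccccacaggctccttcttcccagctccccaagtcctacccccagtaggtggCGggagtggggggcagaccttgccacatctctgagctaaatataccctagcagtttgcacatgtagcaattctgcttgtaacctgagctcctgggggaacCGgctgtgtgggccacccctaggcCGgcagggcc
Cacnb2 start with many CpG, chr2:14604056-14604355, plus strand: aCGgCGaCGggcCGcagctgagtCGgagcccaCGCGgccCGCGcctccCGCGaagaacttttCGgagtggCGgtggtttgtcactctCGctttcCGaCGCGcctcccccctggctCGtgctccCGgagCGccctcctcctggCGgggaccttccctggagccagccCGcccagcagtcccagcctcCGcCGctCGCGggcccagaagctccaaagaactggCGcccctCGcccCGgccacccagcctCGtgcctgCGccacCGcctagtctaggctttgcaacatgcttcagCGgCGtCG
Cacnb2 start with few CpG, chr2:14823842-14824141, plus strand: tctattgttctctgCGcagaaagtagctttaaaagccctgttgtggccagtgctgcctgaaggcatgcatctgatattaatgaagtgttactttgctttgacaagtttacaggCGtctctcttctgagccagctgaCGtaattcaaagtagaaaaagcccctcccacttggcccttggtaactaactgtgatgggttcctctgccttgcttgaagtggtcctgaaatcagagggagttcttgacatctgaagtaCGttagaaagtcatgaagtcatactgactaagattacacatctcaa
Counts per gene do not tell which start was used in either group.

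Each knockout library held far more Cacnb1 than any control. Levels were 13.3, 18.8, 19.6 and 15.4 CPM in knockouts 1 to 4, against 2.74, 2.20, 2.16 and 2.09 CPM in controls 1 to 4. The lowest knockout was several times the highest control, and the log2 fold change was 2.87 (SE 0.15, adjusted p = 3.46e-09 in edgeR's quasi-likelihood test). Skeletal muscle markers were read as well, and the part of skeletal muscle RNA in the rise of Cacnb1 was not tested. Of 10 such markers only Casq1 had enough counts to be tested and it fell (log2 fold change -2.72, adjusted p = 6.08e-08), Myh4 held no count in any library, and the summed level, which is mostly Casq1, was 1.1 to 2.02 CPM in knockouts and 7.03 to 9.47 CPM in controls.

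Cacnb2 had 31.5, 17.7, 17.1 and 15.9 CPM in knockouts 1 to 4, against 60.8, 55.1, 56.1 and 59.5 CPM in controls 1 to 4. Knockout replicate 1 was well above the other knockouts and still below every control. The log2 fold change was -1.50 (SE 0.17, adjusted p = 6.4e-06 in edgeR's quasi-likelihood test), it was -1.78 without knockout replicate 1, and -0.57 with library totals. Cacnb3 and Cacnb4, which are known mostly from neurons, did not pass. Cacnb3 gave a log2 fold change of 0.55 (95% interval 0.08 to 1.02, adjusted p = 0.0501) and lay at the threshold. It passed as higher without knockout replicate 1 (0.65, adjusted p = 0.0147), without control replicate 4 (adjusted p = 0.0287), without the filter (adjusted p = 0.027), with nuclear genes alone (adjusted p = 0.0484) and with library totals (1.56), and did not pass with DESeq2 (adjusted p = 0.0753). Cacnb4 gave 0.31 (95% interval -0.18 to 0.80, adjusted p = 0.281), and passed as higher with library totals (1.303).

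Set per exon length within each library, where the scaling between libraries cancels, Cacnb1 made up 49.3%, 66.9%, 66.9% and 61.1% of the beta subunit total in knockouts 1 to 4, against 10.7%, 9.08%, 9.22% and 8.23% in controls 1 to 4. Cacnb2 made up 25.8% ± 9.51 in knockouts and 80.2% ± 1.82 in controls (SD, n = 4 each). Per exon length the beta subunit with the largest share was thus Cacnb1 in each knockout and Cacnb2 in each control. This order rests on exon lengths of 4529 bases for Cacnb1 and 13228 bases for Cacnb2, since by counts Cacnb2 was still ahead of Cacnb1 in knockout 1 (824 against 348) and knockout 4 (503 against 489). These shares were set up after the values of the genes had been seen and are given without a test. Cacnb3 relative to Cacnb2, a ratio that does not involve Cacnb1, stood 2.10 higher on the log2 scale in knockouts, at -3.18 ± 0.743, against -5.28 ± 0.383 in controls (SD, n = 4 each). The groups did not overlap, which is the smallest p an exact permutation test of 70 relabelings can give (p = 0.0286), and 0.0857 after adjustment over the 6 ratios.

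**Figure D4:**
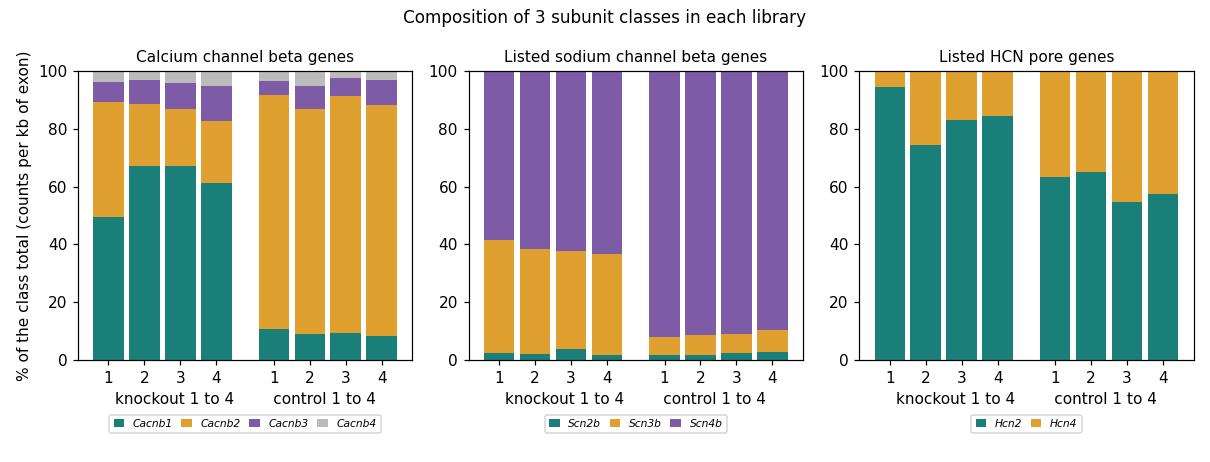
Share of each gene in its subunit class within each library, in % of counts per kb of exon, for calcium channel beta subunits and for the listed sodium channel beta subunits and HCN pores. Cacnb1 holds 49.3% to 66.9% of the first class in knockouts and 8.23% to 10.7% in controls, and Scn3b and Hcn2 likewise hold larger shares in each knockout than in any control.

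Gamma subunits gave 1 change. Cacng6 (ENSMUSG00000078815.8, chromosome 7, 3424195 to 3435667, plus strand), the closest relative of the skeletal muscle gamma subunit gene Cacng1, held 2, 1, 0 and 0 counts in knockouts 1 to 4, against 16, 16, 13 and 17 counts in controls 1 to 4. No knockout came near a control. With 3 counts against 62 the ratio of scaled counts was 0.0290, with an exact 95% interval of 0.00582 to 0.0888 that covers counting error only, and 0.0122 without knockout replicate 1, which held 2 of the 3 counts. The fitted log2 fold change was -4.84 (SE 0.51, adjusted p = 3.35e-06 in edgeR's quasi-likelihood test) and was -5.79 without that library. Cacng6 reached the minimum count of the test through its control libraries alone. Cacng7, which like Cacng4 and Cacng8 encodes a partner of AMPA-type glutamate receptors, gave -0.26 (95% interval -0.79 to 0.26). Cacng6, Cacng7 and Cacng8 lie in a cluster on chromosome 7, with 8546 bases between Cacng8 and Cacng6 and 22461 bases between Cacng7 and Cacng8, yet Cacng8 held no count in any library. Cacng1 and Cacng4, 15834 bases apart on chromosome 11, held 16 and 2 counts in all and were not tested.

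Of the sodium channel pores, the skeletal muscle gene showed the largest fall. Scn4a (ENSMUSG00000001027.7, chromosome 11, 106318592 to 106353288, minus strand) had 1.07, 1.51, 1.93 and 1.36 CPM in knockouts 1 to 4, against 25.4, 19.9, 19.2 and 15.1 CPM in controls 1 to 4. The highest knockout lay far below the lowest control, and the gene was 13.3-fold lower in knockouts (log2 fold change -3.74, SE 0.18, adjusted p = 1.64e-09 in edgeR's quasi-likelihood test). It was -2.73 with library totals. In controls Scn4a stood at 2.82 ± 0.598 CPM per kb of exon, of the same order as Scn7a at 2.98 ± 0.147, and in knockouts at 0.208 ± 0.0511 CPM per kb against 4.36 ± 0.449 for Scn7a (SD, n = 4 each). Casq1, the tested skeletal muscle marker named with Cacnb1, fell as well, and the others on that list were below the minimum count of the test. Mylpf held 18 counts in knockouts and 17 in controls, Tnnt3 held 17 and 12, and Ryr1 held 9 in each group. Actn3 held 7 counts in knockouts and 19 in controls, and Tnni2 held 1 and 34. The part of skeletal muscle RNA in the fall of Scn4a was not tested.

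Scn7a (ENSMUSG00000034810.7, chromosome 2, 66673425 to 66784914, minus strand) encodes a sodium channel relative that responds to the sodium level rather than to voltage. It had 36.3, 28.3, 31.9 and 31.4 CPM in knockouts 1 to 4, against 20.6, 22.5, 23.0 and 21.5 CPM in controls 1 to 4. All knockouts lay above all controls, by a modest margin, with a log2 fold change of 0.55 (SE 0.08, adjusted p = 9.86e-05 in edgeR's quasi-likelihood test) and of 0.48 without knockout replicate 1. Fibroblast markers also moved, 4 of 8 rose and none fell, with summed levels of 253 to 486 CPM in knockouts and 251 to 262 CPM in controls. Knockout replicate 1, which had the highest level of Scn7a, had the lowest of these knockout sums. In that library Col1a1, Col1a2 and Pdgfra lay within the range of the controls, Col3a1 and Lum below it, and Postn, Dcn and Tcf21 above it. Of 7 Schwann cell markers tested 1 rose and 1 fell, with summed levels of 7.25 to 8.22 CPM in knockouts and 8.07 to 10.8 CPM in controls. The part of either cell type in the rise of Scn7a was not tested.

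The neuronal pores were scarce. Scn2a had 0.115, 0.376, 0.260 and 0.536 CPM in knockouts 1 to 4, against 0.896, 0.524, 0.443 and 0.449 CPM in controls 1 to 4, and did not pass (log2 fold change -0.81, 95% interval -1.68 to 0.06, adjusted p = 0.114 in edgeR's quasi-likelihood test), except as lower without knockout replicate 4 (-1.14, adjusted p = 0.0432). Scn3a gave -0.06 (95% interval -0.44 to 0.31). Scn2a and Scn3a lie 53143 bases apart on chromosome 2 on opposite strands. Scn1a held 1 count and Scn8a 13 counts over all libraries. Of 12 neuron markers 5 were tested, 2 rose (Uchl1 and Tubb3), 1 fell (Dbh, log2 fold change -4.58), and Th and Chat were at 0 in every library. Their summed level was 17.3 to 28.5 CPM in knockouts and 5.59 to 7.23 CPM in controls, and in knockouts it is mostly Uchl1, at 17.2 ± 4.401 CPM in knockouts and 1.65 ± 0.319 CPM in controls (SD, n = 4 each).

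Sodium channel beta subunits moved in opposite directions. Scn4b (ENSMUSG00000046480.6, chromosome 9, 45138395 to 45154152, plus strand), whose product supplies the open-channel blocker of resurgent sodium current, had 4.67, 3.36, 4.56 and 3.81 CPM in knockouts 1 to 4, against 26.5, 24.2, 21.5 and 16.2 CPM in controls 1 to 4. Every knockout was several-fold below every control, with a 5.40-fold lower level in knockouts (log2 fold change -2.43, SE 0.15, adjusted p = 1.84e-08 in edgeR's quasi-likelihood test). Scn3b (ENSMUSG00000049281.16, chromosome 9, 40269217 to 40291618, plus strand) had 3.40, 2.17, 2.71 and 2.30 CPM in knockouts 1 to 4, against 1.95, 2.04, 1.66 and 1.55 CPM in controls 1 to 4. The lowest knockout stood just above the highest control. Its log2 fold change was 0.55 (SE 0.19, adjusted p = 0.0262 in edgeR's quasi-likelihood test), and the call was lost without knockout replicate 1 (0.41), knockout replicate 3, control replicate 3 or control replicate 4, with adjusted p up to 0.0807.

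The third listed beta subunit gene, Scn2b, is the neighbour of Scn4b, with 8324 bases between them on the same strand. It held 21 counts in knockouts and 36 counts in controls and was not tested with the filter. The log2 ratio of Scn4b to Scn2b was 4.59 ± 0.441 in knockouts and 5.45 ± 0.346 in controls (SD, n = 4 each), a difference of -0.86 with overlapping groups. It did not pass an exact permutation test (p = 0.0571, 0.114 after adjustment over the 6 ratios).

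Of the HCN pacemaker channel genes, Hcn4 fell and Hcn2 did not pass the test. Hcn4 (ENSMUSG00000032338.9, chromosome 9, 58823412 to 58863175, plus strand), the main pore of the sinoatrial pacemaker current, had 0.803, 3.18, 2.02 and 1.67 CPM in knockouts 1 to 4, against 5.64, 5.40, 7.86 and 10.6 CPM in controls 1 to 4. The highest knockout was below the lowest control, and both groups were spread widely. The log2 fold change was -1.91 (SE 0.30, adjusted p = 0.000125 in edgeR's quasi-likelihood test), -0.88 with library totals and -1.69 without knockout replicate 1. Hcn2, which is also expressed in working heart muscle, had 7.04, 4.80, 5.11 and 4.73 CPM in knockouts 1 to 4, against 5.11, 5.24, 4.93 and 7.43 CPM in controls 1 to 4. The groups overlapped, with a log2 fold change of -0.08 (95% interval -0.43 to 0.27) that was 0.88 with library totals.

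The log2 ratio of Hcn4 to Hcn2 was -3.10, -0.59, -1.33 and -1.49 in knockouts 1 to 4, against 0.14, 0.04, 0.67 and 0.51 in controls 1 to 4. Hcn2 thus had more counts than Hcn4 in every knockout, and Hcn4 had more in every control. This order by counts does not allow for exon lengths of 3195 bases for Hcn2 and 6118 bases for Hcn4. Per exon length Hcn2 held the larger share in every control too, at 54.6% to 65.0%. The difference of the log2 ratio between the groups was -1.97 (exact permutation p = 0.0286, the smallest possible, and 0.0857 after adjustment over the 6 ratios), and -1.48 without knockout replicate 1. Of 12 markers of the conduction system 8 were tested, 1 rose (Gja5) and 3 fell (Smoc2, Cntn2 and Etv1), and none was at 0 in every library. Their summed level was 53.9 to 65.6 CPM in knockouts and 72.4 to 84.1 CPM in controls, and their part in the change of Hcn4 was not tested. Of the 8 atrial markers tested 3 rose and 2 fell, with summed levels of 935 to 2150 CPM in knockouts and 94.8 to 113 CPM in controls that are mostly Nppa, while the atrial markers Myl7 and Sln held 8 counts and 1 count over all libraries.

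The cyclic-nucleotide-gated subunits differed most in size of change. Cngb3 (ENSMUSG00000056494.7, chromosome 4, 19280850 to 19510623, plus strand), the modulatory subunit of the cone photoreceptor channel, held 3, 2, 4 and 3 counts in knockouts 1 to 4, against 54, 42, 43 and 64 counts in controls 1 to 4. The groups were far apart, and the ratio of scaled counts was 0.0354 with an exact 95% interval of 0.0180 to 0.0633 that covers counting error only. Its fitted log2 fold change was -4.74 (SE 0.29, adjusted p = 1.44e-08 in edgeR's quasi-likelihood test) and it ranged from -4.85 to -4.55 when each library was left out in turn. Cngb3 reached the minimum count of the test through its control libraries alone. Cngb1 (ENSMUSG00000031789.17, chromosome 8, 95239045 to 95306585, minus strand), the modulatory subunit of the rod and olfactory channels, had 0.382, 0.550, 0.519 and 0.788 CPM in knockouts 1 to 4, against 0.264, 0.367, 0.387 and 0.199 CPM in controls 1 to 4. Knockout replicate 1 lay within the range of the controls, and Cngb1 reached the minimum count of the test through its knockout libraries alone. The log2 fold change of 0.89 (SE 0.34, adjusted p = 0.0441 in edgeR's quasi-likelihood test) did not pass with DESeq2, without the filter, or when any library except knockout replicate 1 was left out, with adjusted p up to 0.14. Of 4 tested genes of phototransduction none rose and Pde6b fell, the summed level of the 11 on the list was 4.41 to 4.76 CPM in knockouts and 4.64 to 5.64 CPM in controls, and no gene on it was at 0 in every library.

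Shares within the listed genes of a class, per exon length, also differed between the groups. Of the listed sodium channel beta subunit genes, Scn4b made up 61.4% ± 2.11 in knockouts and 90.99% ± 1.05 in controls, and Scn3b made up 35.98% ± 2.20 in knockouts and 6.86% ± 0.720 in controls (SD, n = 4 each). Scn4b thus held the largest share in every library, by a smaller margin in knockouts. Of the listed sodium channel pores, Scn7a made up 91.3% ± 1.54 in knockouts and 49.4% ± 5.65 in controls, and Scn4a made up 4.42% ± 1.23 in knockouts and 45.99% ± 5.54 in controls. Of the listed HCN genes, Hcn2 made up 94.4%, 74.3%, 82.9% and 84.4% in knockouts 1 to 4, against 63.5%, 65.0%, 54.6% and 57.3% in controls 1 to 4, and Hcn4 the rest. These shares too were set up after the values were seen and carry no test.

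Among the relatives of the listed genes with the same symbol stems, 11 are reported here, and 1 of them could be tested. Cnga3, the pore subunit with which Cngb3 forms the cone channel, had 0.803, 0.0868, 0.231 and 0.410 CPM in knockouts 1 to 4, against 2.53, 2.46, 2.05 and 1.70 CPM in controls 1 to 4. It fell as Cngb3 did, with a log2 fold change of -2.58 (SE 0.40, adjusted p = 9.94e-05 in edgeR's quasi-likelihood test) and of -3.17 without knockout replicate 1.

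**Figure D5:**
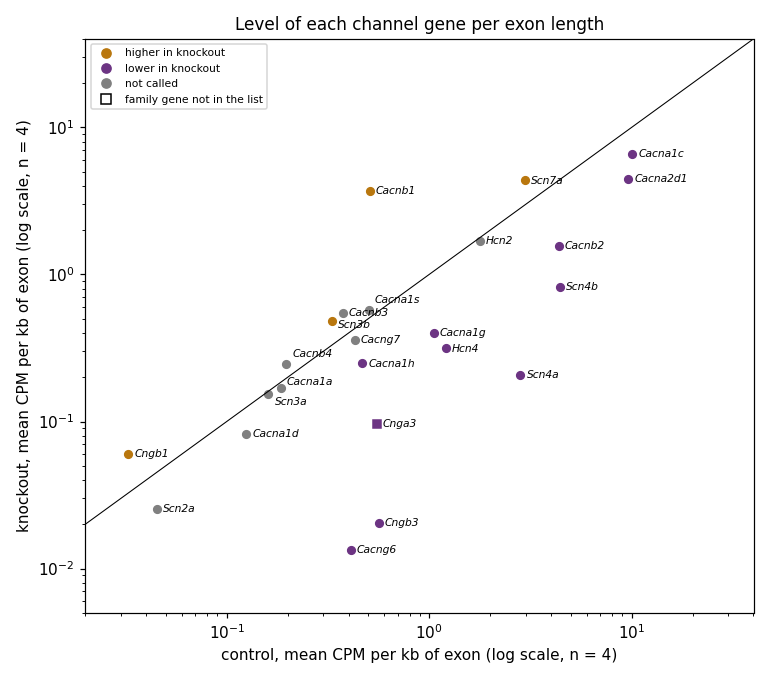
Mean level of each tested channel gene in CPM per kb of exon in knockouts (vertical) and controls (horizontal), n = 4 each, on log axes with the line of equal levels. Cacna1c lies at the top right below the line, Cacnb1 lies farthest above it, and Scn4a, Cngb3 and Cacng6 lie farthest below it.

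Per exon length, which allows genes to be compared, tested members spanned a wide range. In knockouts Cacna1c led with 6.59 ± 1.49 CPM per kb, followed by Cacna2d1 at 4.45 ± 0.284, Scn7a at 4.36 ± 0.449 and Cacnb1 at 3.71 ± 0.650 (SD, n = 4 each). In controls Cacna1c at 10.04 ± 0.872 CPM per kb and Cacna2d1 at 9.61 ± 0.370 were followed by Scn4b at 4.44 ± 0.891 and Cacnb2 at 4.37 ± 0.207. Cacna2d1, Scn7a and Cacnb1 in knockouts, and likewise the pairs named in controls, differed by about their spread or less. The lowest tested member was Cacng6 in knockouts at 0.0133 ± 0.0183 and Cngb1 in controls at 0.0325 ± 0.00946 CPM per kb.

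The 13 members that were not tested held 0 to 65 counts over all 8 libraries. Of these, 4 had knockout libraries wholly below the control libraries and passed as lower when the filter was dropped (edgeR's quasi-likelihood test). They were Cacna2d2 with 20 counts in knockouts and 37 in controls (log2 fold change -1.53, adjusted p = 0.0122), Cacna2d3 with 20 counts in knockouts and 45 in controls (-1.83, adjusted p = 0.0011), the sensory neuron pore gene Scn10a with 20 counts in knockouts and 43 in controls (-1.77, adjusted p = 0.00197) and Scn2b with 21 counts in knockouts and 36 in controls (-1.44, adjusted p = 0.0135). The authors' deposited table also has these 4 under an adjusted p of 0.05, with log2 fold changes of -1.25, -1.55, -1.49 and -1.23. Over all genes, dropping the filter gave 4239 of 31307 lower and 5240 higher. Among the 17891 genes that passed the filter, 21.5% had knockout libraries wholly below the control libraries. The authors' deposited table gives an adjusted p for 32 members, of which 3 are under 0.05 as higher and 14 as lower. Over all genes, DESeq2 as run here called 4589 higher and 3964 lower of 24023. All 23 members tested here have the same sign in the authors' deposited table, 13 are under the threshold in both, and Cngb1 alone passed here and not there (adjusted p = 0.137 in the authors' deposited table). Both start from the same counts and are not independent.

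Genes that work beside these channels were read from 4 lists, with 60 genes tested, of which 10 rose and 26 fell with TMM scaling, against 26.1% of all genes higher and 23.9% lower. With library totals 44 were higher and 3 lower, where 14066 of all 17891 genes were higher and 480 lower. Of 13 tested partners of sodium channels 2 rose and 3 fell, with a median log2 fold change of -0.01. Slmap, the gene of a sarcolemmal membrane protein, rose (log2 fold change 0.41, adjusted p = 0.000526 in edgeR's quasi-likelihood test), and the anchoring ankyrin Ank2 fell by 0.37 on the log2 scale (adjusted p = 0.000664) although it stood at 0.62 with library totals. The 16 tested regulators of calcium channels had 3 higher and 8 lower, with a median of -0.38. Among them Adrb1, the main adrenergic receptor of heart muscle, fell (2.73 ± 0.763 CPM in knockouts, 12.0 ± 1.80 CPM in controls, log2 fold change -2.15, adjusted p = 1.81e-07), and the calcium binders Calm2 (1.01, adjusted p = 7.49e-07) and Sri, the gene of sorcin (1.06, adjusted p = 1.21e-06), rose.

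Enzymes of cyclic nucleotide turnover and partners of HCN channels had 2 higher and 11 lower of 17 tested, with a median log2 fold change of -0.51. The cyclase Adcy1 had 0.499 ± 0.205 CPM in knockouts and 8.12 ± 0.662 CPM in controls (SD, n = 4 each; -3.98, adjusted p = 2.56e-09 in edgeR's quasi-likelihood test). The phosphodiesterase Pde3a (-0.79, adjusted p = 4.76e-06) and the cyclase Adcy9 (-0.83, adjusted p = 6.36e-06) were lower with TMM scaling and stood at 0.19 and 0.16 with library totals. Other sodium and calcium permeable channels, 14 tested, had 3 higher and 4 lower with a median of 0.10. Here the calcium-activated cation channel Trpm4 (-0.80, adjusted p = 6.94e-05, 0.17 with library totals) fell and Trpc1 (0.55, adjusted p = 0.00136) rose. The median over all genes was -0.01, and no list was tested as a set.

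Exons of some members share bases with genes on the other strand, and the sources used here do not say whether counting used the strand. Among members that passed the test the largest such overlap was 618 bases in Cacnb2, 158 bases with Tpsg1 in Cacna1h and 80 bases with Gm11629 in Cacnb1. Among the others Cacnb4 shared 1433 bases with A430018G15Rik, Cacna1s 1309 bases with Gm37759 and Cacna1d 589 bases with Chdh, and whether reads in those stretches were assigned to the right gene is not known here. Of the 36 members 27 had a start in the RefSeq table, with 37 windows in all. Each window was searched on both strands for TGACGTCA, the cyclic AMP response element, found in 0 of the 37 and in 1.79% of all 32851 windows, for TGATGNAA, the amino acid response element, found in windows of Cacna1c and Hcn4 and in 3.97% of all, for the core motif of MEF2, found in a window of Cngb1 and in 3.69% of all, and for TATAAA, found in windows of Cacna1d and Scn2a and in 13.6% of all. A match is a run of letters and nothing is drawn from its presence or absence.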

How the data were processed

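Crude heart mitochondria of 4 Tefm knockout and 4 control mice were the source of total RNA (miRNeasy kit), from which TruSeq libraries were made for paired-end reads on a MiSeq, per the labels' protocols. Replicates are separate mice, per the series' design text. The authors deposited raw counts per gene as whole numbers. Tools named without a role in the submitters' processing notes are DESeq2 1.14.1, R 3.3.2, featureCounts, bedtools, SAMtools 1.3.1 and Bowtie2, with the build mm10. The sources used here do not state their settings, strand handling or rRNA removal. The authors' deposited table holds a log2 fold change and its standard error, the mean signal, a score of the test, and p-values before and after adjustment. The deposited normalized counts per library were not used, and 0 columns of other samples were present.

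Counts were tested with edgeR 4.0.16 in R 4.3.3 (quasi-likelihood F test after filterByExpr at a minimum count of 10, a scaled count of 0.387 at the median library total in at least 4 libraries, with TMM factors), two-sided, over 17891 genes with Benjamini-Hochberg adjustment at 0.05. A standard error is the log2 fold change divided by the square root of F. Log2 ratios of 6 gene pairs, with 0.5 added to each count, were compared by two-sided exact permutation of the library labels (SciPy 1.17.1). CPM are counts over TMM-scaled library sizes, and levels per kb use the union of exons in GENCODE M21 of GRCm38, to which 49289 of 49584 features were matched. Intervals of count ratios hold counting error only, because counts were summed over the libraries of a group and variation between mice does not enter. PCR copies, which were not marked by molecular identifiers, are not allowed for either. The fits were tested on simulated data, with 50 genes changed at each of the folds 1.5, 2, 4 and 8. Both groups otherwise had the same composition, and all genes the same dispersion. The simulation therefore does not check the scaling between the groups or the spread of knockout replicate 1.

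All 36 members are accounted for, with values per library for each member with an adjusted p under 0.05. Relatives are named where they passed the filter, and up to 3 called genes by smallest p from each of 4 lists of channel partners, and a few of both kinds are not reported here or counted in the lists. Marker lists are given by counts and summed levels. The members, lists and tests were chosen with earlier results of these data known. The symbols Gucy1a1, Gucy1b1 and Fam155b of those lists were not matched, and Pde2a has 2 features, of which 1 was tested.

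Alternatives were DESeq2 1.42.0, RLE factors, library totals, no filter, nuclear genes alone, the replicate number as a block, 5 added to counts in the ratios, and leaving out each library. Counts of each replicate pair were farther apart than sampling noise allows in knockouts (chi-square per degree of freedom 8.55 to 139.9) and in controls (2.56 to 3.997), so none was counted as a duplicate. Sequences are RefSeq's, on GRCm38.p6. Figures were drawn with matplotlib 3.10.9.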

Additional observations from a re-analysis of the deposited data

Results flagged for a closer look

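Of 62 groups of 4 libraries examined among the tested genes, 6 held a library far from the other 3 by Dixon's criterion, where chance gives about 1 in 20. Knockout replicate 1 was the one in 2 of them, with 31.5 CPM of Cacnb2 against 15.9 to 17.7 CPM in the other knockouts, and with 7.04 CPM of Hcn2 against 4.73 to 5.11 CPM. Knockout replicate 2 had 3.16 CPM of Cacna1s, below 3.90 to 3.98 CPM in the other knockouts. Control replicate 1 had 2.74 CPM of Cacnb1, above 2.09 to 2.20 CPM in the other controls, control replicate 3 had 0.719 CPM of Cacng6, below 0.838 to 0.847 CPM, and control replicate 4 had 7.43 CPM of Hcn2, above 4.93 to 5.24 CPM. None of these changed the direction of a gene that passed the test when left out. Hcn2, which did not pass, stood at 0.08 without control replicate 4.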

How the results depend on the processing

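Of the 14 members called, RLE factors kept 14, DESeq2, no filter and the replicate block kept 13 each (Cngb1 was lost), nuclear genes alone kept 13 (Cngb1 was not tested there), leaving out a library kept 12 or 13 and library totals kept 10. The replicate numbers were checked and do not pair the libraries, since same-numbered libraries correlated at -0.0136 to 0.0497, and not every library correlated best with its own number. With the replicate block 4580 genes rose and 4253 fell, against 4669 and 4274 without it, and Cacna1d (adjusted p = 0.0467) and Cacnb3 (adjusted p = 0.0276) passed, which they do not without it. Library totals moved the counts most, to 14066 genes higher and 480 lower (96.7% of calls higher, against 52.2%), 12 members higher and 6 lower, and 44 partner genes higher and 3 lower. Under library totals 12 named genes changed sign, to 0.90 for Cacna1a, 0.35 for Cacna1c, 0.36 for Cacna1d, 0.10 for Cacna1h, 0.71 for Cacng7, 0.19 for Scn2a, 0.92 for Scn3a, 0.88 for Hcn2, 0.62 for Ank2, 0.19 for Pde3a, 0.16 for Adcy9 and 0.17 for Trpm4, where the scaling itself moves every gene up. Leaving out each library in turn gave 2 to 4 members higher, 2 of them without knockout replicate 3 and without control replicate 3, and log2 fold changes that crossed 0 for Cacna1a (-0.24 to 0.033), Scn3a (-0.14 to 0.039) and Hcn2 (-0.23 to 0.079), none of which passed the test. The ratios ranged from 0.34 to 0.95 for Cacna1h to Cacna1g, from -0.10 to 0.12 for Cacna1d to Cacna1c, from -0.71 to -0.13 for Cacna2d2 to Cacna2d1, from 1.88 to 2.45 for Cacnb3 to Cacnb2, from -1.04 to -0.69 for Scn4b to Scn2b and from -2.32 to -1.48 for Hcn4 to Hcn2. With 5 added to each count Scn4b to Scn2b was -1.17 (exact permutation p = 0.0286). With the replicate block, as an exact sign-flip test, Cacnb3 to Cacnb2 was 2.10 and Hcn4 to Hcn2 was -1.97, both at p = 0.125, the smallest it can give. The cause of these shifts other than that of library totals was not tested. Members under 1 CPM rest on few counts. The intervals of the count ratios of Cacng6 and Cngb3 leave out variation between mice and do not bound the size of the fall.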

Other observations

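Of the 11 relatives of the listed genes reported here 10 were below the minimum count. Cacng2, Cacng5, Cnga1 and Scn9a held no count in any library, and Cacna1f, Cacng3, Cnga2, Cnga4, Hcn3 and Scn11a held 2 to 13 counts over all 8 libraries. Cnga1, the pore subunit with which Cngb1 forms the rod channel, was thus at 0 in the libraries in which Cngb1 was counted, whereas Cnga3 and Cngb3, which form the cone channel, were both counted in every library. Among the calcium channel pores per exon length, Cacna1c made up 81.0% ± 5.08 of the total in knockouts and 81.0% ± 0.462 in controls (SD, n = 4 each), and Cacna1s made up 7.16% ± 1.16 in knockouts and 4.01% ± 1.138 in controls. These shares were set up after the values were seen and carry no test.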
